A study of Mus musculus with 8 samples.

Results

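The genes described here are 10 transcripts that Wnt/β-catenin signalling is known to control around the central vein of the liver lobule: Notum, Rnf43, Znrf3, Lgr5, Axin2, Nkd1, Tbx3, Glul, Oat and Rhbg. They were taken by name, as a set chosen by what is known of the pathway and with their measured TG and het differences in these libraries in view, and all 10 were listed among the 13774 genes of the transgenic table and the 11773 genes of the heterozygous table. The data are bulk RNA-seq profiles of whole liver from C57BL/6 mice given a 42% high fat diet over 8 weeks, so every group shares the strain, the tissue and the diet. Ube3a TG homo mice carry a transgene that overexpresses the ubiquitin ligase Ube3a, and Ube3a het mice carry 1 knockout and 1 wild-type allele of it. Each genotype has 2 libraries, set against 2 wild-type (WT) libraries in a table of its own. The promoter of the transgene and the age and sex of the mice are not stated in the labels, and a diet without added fat was not analysed here.

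Wnt ligands and R-spondins made by endothelial cells of the central vein stabilise β-catenin in the hepatocytes next to it, and those hepatocytes then express a pericentral set of enzymes. The pathway also switches on its own brakes. Notum is a secreted enzyme that strips the lipid from Wnt ligands, Rnf43 and Znrf3 are membrane ubiquitin ligases that remove Frizzled receptors, Axin2 is a scaffold of the β-catenin destruction complex, and Nkd1 binds Dishevelled. Lgr5 is an R-spondin receptor that counteracts Rnf43 and Znrf3, and Tbx3 is a transcription factor of pericentral hepatocytes. Glul (glutamine synthetase), Oat (ornithine aminotransferase) and Rhbg (an ammonia transporter) serve ammonia handling in the innermost pericentral layer.

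Reads recovered from the deposited values numbered 44193275 to 47928229 per library in the transgenic table and 13171145 to 17748088 in the heterozygous table, so the members rest on fewer reads in the latter. Values below are normalised reads, on a scale set separately in each table. Ube3a itself was at 1187 and 1359 normalised reads in WT and 5991 and 5938 in TG (log2 fold change 2.23, SE 0.13), and at 369 and 409 in WT and 301 and 280 in het (−0.42, SE 0.11), so its direction followed the labels in both tables. Ube3a did not pass the test at an adjusted p under 0.05 in either table (limma adjusted p = 0.0586 in TG and 0.129 in het). The 14 measured hepatocyte markers were abundant in every library, the lowest standing at 6413 normalised reads. Libraries of a group are given as replicates, but the labels do not say that each came from its own animal, so p-values measure only the spread between these libraries. In bulk liver, fewer cells of a type and less RNA per cell cannot be told apart.

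On GRCm38, 4 of the members lie on chromosome 11: Notum (ENSMUSG00000042988, 120653788 to 120661175, minus strand), Rnf43 (ENSMUSG00000034177, 87662722 to 87735539, plus), Znrf3 (ENSMUSG00000041961, 5276324 to 5444847, minus) and Axin2 (ENSMUSG00000000142, 108920349 to 108950783, plus). Lgr5 (ENSMUSG00000020140) lies on chromosome 10 from 115450311 to 115587780, minus, and Nkd1 (ENSMUSG00000031661) on chromosome 8 from 88521354 to 88594884, plus. Tbx3 (ENSMUSG00000018604) lies on chromosome 5 from 119670669 to 119684724, plus, and Glul (ENSMUSG00000026473) on chromosome 1 from 153899944 to 153909723, plus. Oat (ENSMUSG00000030934) lies on chromosome 7 from 132557478 to 132576398, minus, and Rhbg (ENSMUSG00000104445) on chromosome 3 from 88242874 to 88254709, minus.

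RefSeq promoter windows (GRCm38.p6, 250 bases before to 50 bases after a start) matched 5 of the 10 members by symbol, namely Axin2, Glul, Nkd1, Oat and Rnf43, with 6 windows between them. None of the 6 windows holds TCAAAG, the core that TCF/LEF factors bind, or its longer form ATCAAAG, on either strand; 16% and 3.73% of all 32851 windows do, and every ATCAAAG match is also a TCAAAG match. The 250 bases before the start are shown for 3 members that fared differently in het liver: Rnf43, which passed the test there, Axin2, the most widely used reporter of the pathway, which did not, and Glul, the marker enzyme of the pericentral layer. Capitals mark CCAAT or GGGCGG on either strand, motifs searched after the values were seen, which 33.8% and 32.7% of all windows of this length hold. All 3 are on the plus strand, at chr11:87699647-87699896 for Rnf43 (its RefSeq start inside the gene, since the window of its upstream start overlaps an annotated exon), chr11:108920099-108920348 for Axin2 and chr1:153899679-153899928 for Glul.
Rnf43: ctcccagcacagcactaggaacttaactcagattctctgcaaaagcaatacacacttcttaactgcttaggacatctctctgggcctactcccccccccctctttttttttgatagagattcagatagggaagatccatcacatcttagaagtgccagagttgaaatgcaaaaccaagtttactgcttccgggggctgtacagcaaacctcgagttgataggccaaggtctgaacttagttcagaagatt
Axin2: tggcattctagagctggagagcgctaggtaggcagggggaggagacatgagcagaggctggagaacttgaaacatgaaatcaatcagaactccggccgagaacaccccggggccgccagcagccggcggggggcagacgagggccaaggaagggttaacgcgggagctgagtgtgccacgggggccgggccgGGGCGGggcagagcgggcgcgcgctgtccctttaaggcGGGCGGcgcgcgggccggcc
Glul: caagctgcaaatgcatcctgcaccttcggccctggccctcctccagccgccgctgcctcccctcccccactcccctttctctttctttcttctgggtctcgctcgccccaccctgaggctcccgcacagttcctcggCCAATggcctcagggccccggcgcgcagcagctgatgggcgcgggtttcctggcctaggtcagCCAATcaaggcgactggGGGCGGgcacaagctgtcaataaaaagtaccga
Rnf43 holds neither motif in this window and has a GC content of 45.2%, below the median of 52.4% over all windows. The Axin2 window holds GGGCGG 2 times at 69.2% GC, and the Glul window holds CCAAT 2 times and GGGCGG 1 time at 64.8% GC. A match in these letters is a description of the sequence and not a measured binding site.

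In het liver Notum and Rnf43, a secreted and a membrane brake of the pathway, were the members that passed the test, both lower than WT. Notum was at 1057 and 905 normalised reads in WT and at 401 and 461 in het, which is 981 ± 107 against 431 ± 42.8 (SD, n = 2) or 43.9% of WT. Both het libraries lay far below both WT libraries, and the gap between genotypes was larger than the gap within either pair. The log2 fold change was −1.18 (SE 0.12, adjusted p = 0.00386 by limma with Benjamini-Hochberg adjustment over all genes), which ranked Notum 13 of 11773 genes by p.

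Rnf43 was at 608 and 604 in WT and at 356 and 408 in het, or 606 ± 3.25 against 382 ± 37.1 (SD, n = 2). Its WT libraries were nearly alike and both het libraries were lower, at 63.0% of WT on average. The log2 fold change was −0.67 (SE 0.11, limma adjusted p = 0.0279). Leaving out WT replicate 1, WT replicate 2 or het replicate 1 ended this call, with limma adjusted p of 0.101, 0.0675 and 0.135, while the value stayed between −0.57 and −0.77 over the 4 omissions. Notum passed in all 4 of them, at −1.07 to −1.30.

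Znrf3, the paralog of Rnf43 with the same role at the receptor, was at 178 and 167 in WT and at 113 and 121 in het. Both het libraries lay below both WT libraries with little spread in either pair, but the log2 fold change of −0.56 (SE 0.15, limma adjusted p = 0.122) did not pass. Rnf43 reads per Znrf3 read were 3.41 and 3.61 in WT and 3.15 and 3.38 in het, so the ratio of these paralogs was close in all 4 libraries and slightly lower in het.

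Lgr5, the least abundant member per kilobase of exon, was at 80.0 and 85.1 in WT and at 25.0 and 61.0 in het, from 82, 83, 29 and 53 reads. Both het libraries lay below WT, but they differed 2.38-fold from each other, a gap that only 0.322% of the 10241 genes with a mean of at least 50 exceeded. The log2 fold change was −1.06 (SE 0.41, limma adjusted p = 0.317). It was −1.68 with limma adjusted p = 0.0420 without het replicate 2, and −0.43 without het replicate 1, so a single library decides its size.

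Nkd1 was at 94.6 and 93.3 in WT and at 57.7 and 78.2 in het (−0.48, SE 0.21, limma adjusted p = 0.343). It too stood lower in both het libraries without passing the test. Axin2, at 75.1 and 109 in WT and 68.9 and 102 in het, overlapped between the groups, with a log2 fold change of −0.10 (SE 0.26). Tbx3 also overlapped, at 382 and 436 in WT and 374 and 465 in het (0.03, SE 0.13, 95% interval −0.27 to 0.33).

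The 3 genes of ammonia handling showed no shift in het liver that exceeded the spread of the libraries. Glul was at 13120 and 12800 in WT and at 10105 and 13882 in het (−0.13, SE 0.16, 95% interval −0.49 to 0.23), with the het libraries on either side of WT. Oat was at 12126 and 29284 in WT and at 21426 and 26602 in het (0.34, SE 0.54). Its WT libraries differed 2.41-fold, more than all but 0.352% of genes with a mean of at least 50, and without WT replicate 2 the value was 0.98 with limma adjusted p = 0.0447, against −0.29 without WT replicate 1. Rhbg was at 176 and 308 in WT and at 186 and 431 in het (0.28, SE 0.61), where the libraries of both pairs stood further apart than the group means.

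**Figure D1:**
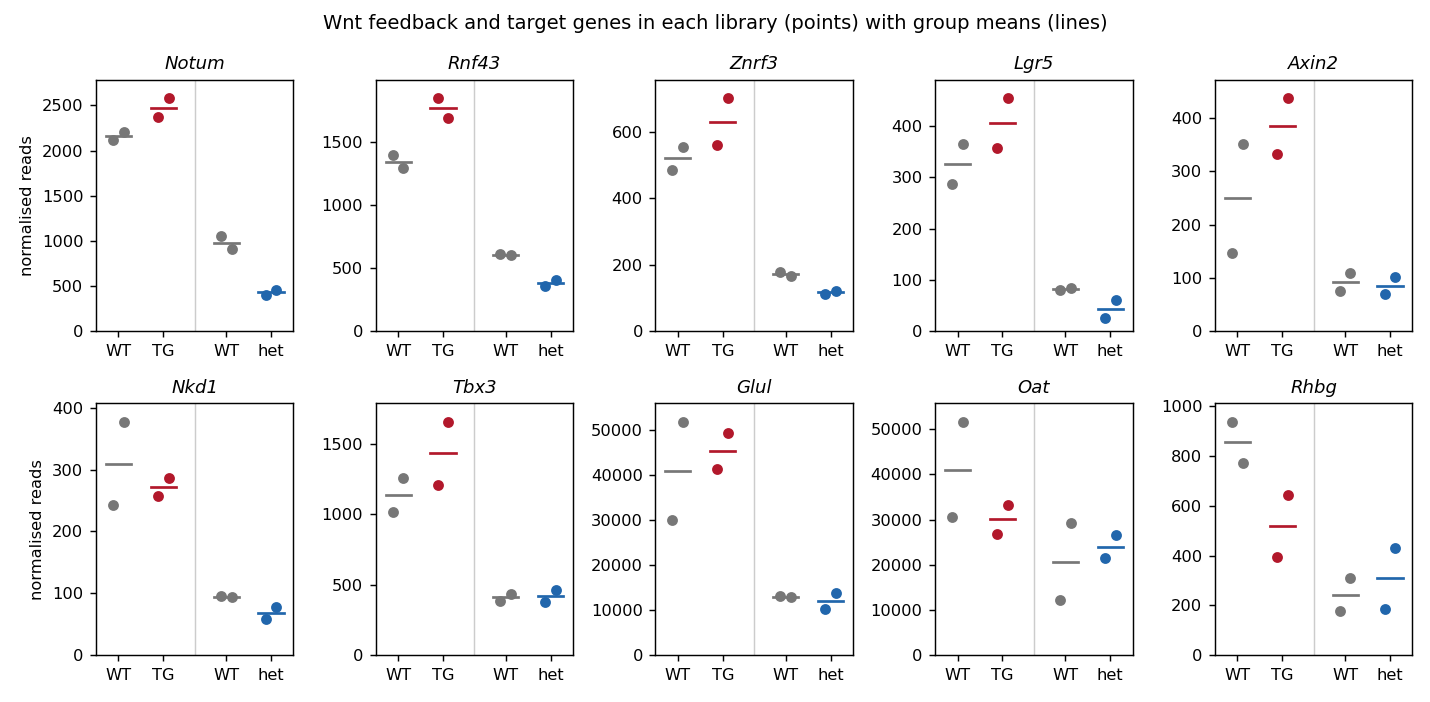
Normalised reads of each member (linear vertical axis from 0, scaled per gene) in the 2 WT and 2 TG libraries of the transgenic table and the 2 WT and 2 het libraries of the heterozygous table; points are libraries with replicate 1 on the left, and lines are group means. Notum shows 2 het libraries at 401 and 461 against WT at 1057 and 905, while Oat and Rhbg spread widely inside groups; levels are comparable only within a table.

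Counted together, 2 of 10 members were called lower in het and none higher, where 0.544% of all genes were called lower, 0.892% higher and 1.44% in either direction. Both het libraries lay below both WT libraries in 5 of 10 members (Notum, Rnf43, Znrf3, Lgr5 and Nkd1), against 23.7% of all genes. The median log2 fold change was −0.56 over the 7 feedback and regulator genes, 6 of which stood below WT (50.1% of all genes did), 0.28 over Glul, Oat and Rhbg, 2 of which stood above WT (49.9% of all genes), and 0.00 over all genes. Because the members were chosen with this contrast known, these counts describe them and are not independent support.

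In TG liver none of the 10 members passed, and neither did any other gene: limma called 0 of 13774 genes (0%), with 1256 (9.12%) at an unadjusted p under 0.05, edgeR called 0 and DESeq2 called 97 higher and 91 lower, no member among them. Of the 7 feedback and regulator genes 6 stood above WT here (50.2% of all genes did), and 6 stood below it in het (50.1%). These were not the same 6 genes, since Nkd1 stood below WT in both tables (−0.15 in TG and −0.48 in het). Tbx3 stood above WT in both (0.33 in TG and 0.03 in het). Rnf43 was at 1392 and 1290 in WT and at 1844 and 1692 in TG, 1341 ± 71.9 against 1768 ± 107 (SD, n = 2). Both TG libraries were higher by more than the gap within either pair, with a log2 fold change of 0.40 (SE 0.12, unadjusted p = 0.0201, limma adjusted p = 0.526).

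Notum was at 2112 and 2204 in WT and at 2371 and 2577 in TG, which gave 0.20 on the log2 scale (SE 0.12, 95% interval −0.10 to 0.50). Znrf3 was at 486 and 555 in WT and at 560 and 701 in TG (0.27, SE 0.17). Both TG libraries of these genes lay above both WT libraries, for Znrf3 by a narrow margin. Lgr5 was at 287 and 366 in WT and 358 and 454 in TG (0.31, SE 0.21), Tbx3 at 1015 and 1257 and 1211 and 1658 (0.33, SE 0.20), and both overlapped.

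Axin2 was at 147 and 352 in WT and at 332 and 437 in TG (0.74, SE 0.46). The low WT replicate 1 sets most of this difference: without it the log2 fold change was 0.12, and without WT replicate 2 it was 1.37. The WT pair differed 2.38-fold in Axin2, and 1.55% of the 11971 genes with a mean of at least 50 had a larger gap. Nkd1 was at 242 and 377 in WT and at 257 and 286 in TG (−0.15, SE 0.25), inside the WT range.

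Of the ammonia genes, Rhbg was the member furthest below WT in TG, at 937 and 774 in WT and at 396 and 643 in TG. Both TG libraries were lower, with a log2 fold change of −0.75 (SE 0.27, unadjusted p = 0.0357, limma adjusted p = 0.535). Oat was at 30483 and 51626 in WT and at 26836 and 33318 in TG (−0.41, SE 0.31), and Glul at 29969 and 51800 in WT and 41284 and 49327 in TG (0.20, SE 0.31). Glul and Oat shared the spread of the WT pair, 1.73-fold and 1.69-fold, so that Oat reads per Glul read were 1.02 and 0.997 in WT and 0.650 and 0.675 in TG, without overlap. In the heterozygous table the same ratio was 0.924 and 2.29 in WT and 2.12 and 1.92 in het, where the WT libraries lay on both sides of het.

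Both TG libraries lay above both WT libraries in 3 of 10 members, against 21.8% of all genes, and below them in Rhbg alone, against 21.6%. The median log2 fold change was 0.31 over the 7 feedback and regulator genes, 6 of them above WT (50.2% of all genes were), and −0.41 over the 3 ammonia genes, 2 of them below WT (49.8% of all genes), beside 0.00 over all genes.

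**Figure D2:**
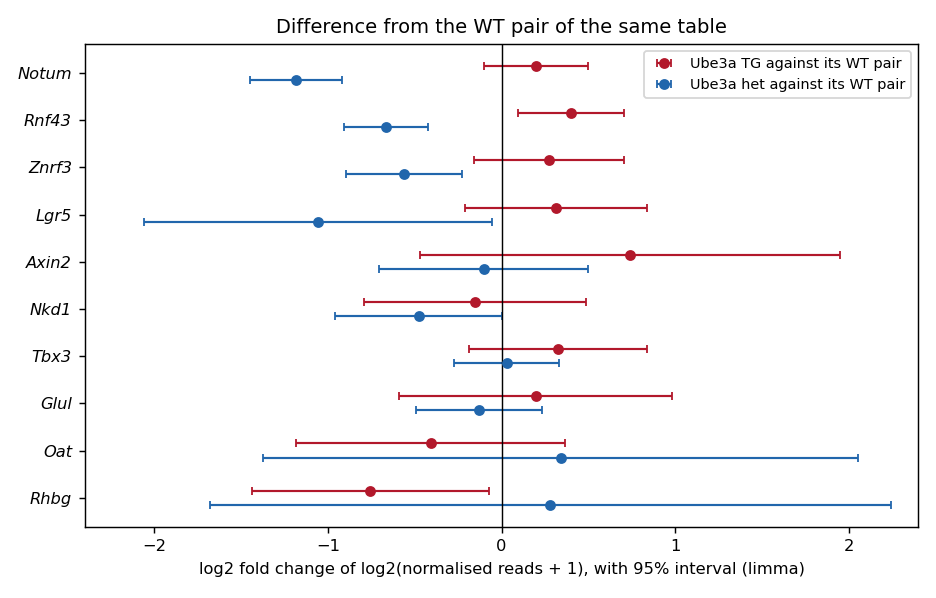
Log2 fold change of each member with its 95% interval from limma (horizontal axis), for TG against its WT pair in red and het against its WT pair in blue. The het points of Notum (−1.18) and Rnf43 (−0.67) lie left of 0 with intervals that stay below it, while Lgr5, Oat and Rhbg carry the widest intervals in het. The het intervals of Znrf3 and Lgr5 also stay below 0, and those of Rnf43 and Rhbg in TG leave out 0. None of these passed after adjustment.

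The effects of the genotypes were compared directly as the TG effect minus the het effect in a joint limma fit of 8 libraries over 11754 genes. Notum differed by 1.38 on the log2 scale (SE 0.17, limma adjusted p = 0.0270) and Rnf43 by 1.07 (SE 0.15, limma adjusted p = 0.0394); 51 genes passed (0.434%), 24 of them above 0 (0.204%). Znrf3 (0.83, SE 0.21, limma adjusted p = 0.142) and Lgr5 (1.37, SE 0.54, limma adjusted p = 0.270) were further on the same side without passing. For Axin2 (0.84), Glul (0.33), Nkd1 (0.32) and Tbx3 (0.30) the difference was positive, and for Oat (−0.75) and Rhbg (−1.04) negative, all with standard errors of at least 0.27 and none passing. Both TG libraries above and both het libraries below their WT pairs was the pattern of Notum, Rnf43 and Znrf3, which 7.23% of all genes showed. The calls of Notum and Rnf43 in this comparison ended on leaving out any 1 of the WT or het libraries (limma adjusted p from 0.0559 to 0.183), and held without TG replicate 1 (0.0137 and 0.0383) or TG replicate 2 (0.00856 and 0.0115).

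Ratios within a library do not depend on the scale of a table. Notum reads per 100 Glul reads came to 8.06 and 7.07 in WT of the heterozygous table and 3.97 and 3.32 in het. In the transgenic table they were 7.05 and 4.25 in WT and 5.74 and 5.22 in TG, inside the WT range. Both het libraries thus had the lowest Notum share relative to Glul of all 8 libraries. Against Tbx3, Notum stood at 2.77 and 2.08 in WT and 1.07 and 0.993 in het, and at 2.08 and 1.75 in WT and 1.96 and 1.55 in TG. Notum reads per 100 Rnf43 reads were 174 and 149.9 in WT and 113 in both het libraries, so Notum was lower in het relative to Rnf43 as well.

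**Figure D3:**
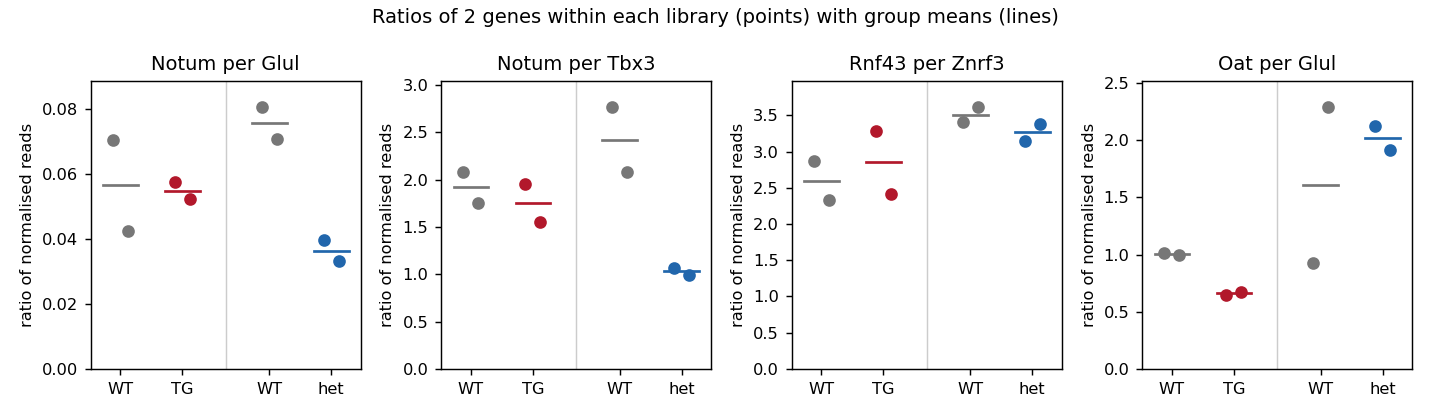
Ratio of the normalised reads of 2 genes in each library (points; replicate 1 on the left) with group means (lines), on linear axes from 0, for both tables. The het libraries are lowest for Notum per Glul and Notum per Tbx3 (1.07 and 0.993), and the TG libraries are lowest for Oat per Glul (0.650 and 0.675).

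Per kilobase of exon, Oat and Glul were the most abundant members in every group, at 8773 and 3900 normalised reads per kilobase in the WT libraries of the heterozygous table, and Notum followed at 407. The means then ran Rhbg 125, Rnf43 92.4, Tbx3 61.7, Znrf3 21.9, Nkd1 20.6, Axin2 16.7 and Lgr5 8.04 in that group, where the ranges of Rhbg and Rnf43 overlapped and those of the other neighbours did not. In het, Notum was at 179 per kilobase and its range overlapped that of Rhbg at 159, while Rnf43 at 58.3 stood beside Tbx3 at 63.3, again overlapping. Axin2, Nkd1 and Znrf3 could not be ordered there, at 15.6, 14.9 and 14.8, and Lgr5 was lowest at 4.19. In the transgenic table Lgr5 was again lowest (31.8 in WT and 39.5 in TG), and Oat and Glul overlapped in both groups.

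The members also differed in the same direction between libraries of a group. All 10 were lower in het replicate 1 than in het replicate 2, where 48.0% of the 10241 genes with a mean of at least 50 were, and 9 of 10 were lower in TG replicate 1 than in TG replicate 2, where 53.1% of 11971 genes were. In the WT pairs 8 of 10 (transgenic table) and 5 of 10 (heterozygous table) were lower in replicate 1. Across the 8 libraries, each centred on its table, Pearson's r of a member with the members' mean profile ranged from 0.91 for Lgr5 to 0.27 for Oat and 0.20 for Rhbg. Each member is itself part of that profile, which raises its r, so these values do not measure how far the members vary together. Of 9881 other genes with a mean of at least 50 in each table, those closest to this profile were Fastkd5 (r = 0.96), Ogfr, Ddx31, Aamdc and Tomm6, and those most opposed were Klf16 (r = −0.97), Slc44a1, Mtch2, Iqsec1 and Fam43a. These r values describe 8 libraries that share 2 tables, and none of the named genes passed the test in either genotype.

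Upstream of the members, the ligand and secretion list had 8 of 25 genes measured in het and 11 in TG. None was called by limma, edgeR or DESeq2, with 2 genes in het and 3 in TG at an unadjusted limma p under 0.05. Of the central vein ligands, Wnt2 was at 68.3 and 59.5 in WT and at 49.99 and 80.5 in het, on either side of WT. The R-spondin gene Rspo3 was at 73.1 and 86.1 in WT and 53.4 and 71.3 in het (−0.36, SE 0.22); both genes are named here after their values were seen. In TG, Wnt2 was at 166 and 236 in WT and 90.6 and 137 in TG (−0.82, SE 0.30, limma adjusted p = 0.541). By smallest p the list gave Porcn (0.70), the enzyme that attaches lipid to Wnt ligands, and Wnt5b (−0.58) in TG, and Wnt5a (0.95) and Wnt2b (−0.85) in het. The het values rest on few reads. Wnt5a had 21 and 13 reads in WT and 39 and 28 in het (limma adjusted p = 0.249). Wnt2b had 37 and 26 reads in WT and 19 and 15 in het (limma adjusted p = 0.289).

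Of the receptors, 7 of 10 stood above WT in het and 8 of 11 in TG, with medians of 0.05 and 0.22. Limma and edgeR called none in either genotype (4 in het and 3 in TG at an unadjusted limma p under 0.05), and DESeq2 called only Fzd8, lower in het. Fzd8, a Frizzled receptor, was the receptor closest to a call in het, at 464 and 331 in WT and 183 and 222 in het (−0.96, SE 0.18, limma adjusted p = 0.0641; DESeq2 adjusted p = 0.0040). Without WT replicate 2 its limma adjusted p was 0.0195. In TG it was at 1131 and 840 in WT and 1233 and 1796 in TG (0.61, SE 0.24), on the other side of WT. Lrp6, the co-receptor, had 0.43 in het, and Lgr4, an R-spondin receptor of hepatocytes, was at 2430 and 2376 in WT and 3419 and 3289 in TG (0.48, SE 0.11, limma adjusted p = 0.485).

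Among inhibitors, 2 of 19 were measured in het (Kremen1 0.26, Dkk3 −0.31) and 8 in TG. Limma and edgeR called none (0 in het and 1 in TG at an unadjusted limma p under 0.05), and DESeq2 called Wif1 higher in TG. Wif1, a secreted Wnt antagonist, was at 3 and 4.04 in WT and at 39.0 and 149 in TG (log2 fold change 4.11, SE 0.72, limma adjusted p = 0.343, DESeq2 adjusted p = 8.07e-05), higher in both TG libraries, which stood 1.91 apart on the log2 scale. Its WT values lie under the mean of about 11.2 that listing required, so Wif1 is listed only through its TG libraries. Its higher level in TG is therefore not independent of that filter. The destruction complex and Dishevelled list had 12 of 18 genes above WT in het (median 0.06) and 13 of 19 in TG (median 0.15), with none called by limma, edgeR or DESeq2 and 3 and 2 at an unadjusted limma p under 0.05. β-catenin itself, Ctnnb1, named after its values were seen, was at 3512 and 3286 in WT and 3349 and 3167 in het (−0.06, SE 0.10), and at 10178 and 10386 in WT and 12964 and 12521 in TG (0.31, SE 0.14). By smallest p the destruction complex list gave Usp34 (0.30) and Tnks (0.33) in het, and Tnks2 (0.46) and Apc (0.37) in TG. Tnks and Tnks2 are the tankyrase genes, whose products mark Axin for degradation.

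Of the nuclear factors, 10 of 15 stood below WT in het (median −0.10) and 1 was called by limma, edgeR and DESeq2 alike, Tle3, a co-repressor of TCF factors. It was at 204 and 271 in WT and at 412 and 420 in het, higher in both het libraries, with a log2 fold change of 0.82 (SE 0.15, limma adjusted p = 0.0403). Without WT replicate 1, het replicate 1 or het replicate 2 the adjusted p was 0.103, 0.190 and 0.179. Tcf7, a TCF factor that is also a target, was at 52.7 and 65.6 in WT and 24.1 and 33.4 in het (−1.02, SE 0.28, limma adjusted p = 0.129). In TG 9 of 17 nuclear factors stood above WT (median 0.01), with none called by limma, edgeR or DESeq2. Tle3 overlapped there (−0.45, SE 0.38). Of 14 other target genes measured in het, 9 stood below WT (median −0.13), among them Ccnd1 (−0.35), and in TG 9 of 19 did (median 0.13). Limma and edgeR called none of these (5 in het and 2 in TG at an unadjusted limma p under 0.05). DESeq2 called 2 in het, Cyp1a2 lower (−0.72) and Fgf21 higher (2.07), and 0 in TG. The target list shares Lef1 and Tcf7 with the nuclear factors, and Cyp2e1, Cyp1a2, Lect2, Slc1a2 and Slc13a3 with the pericentral list below.

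The wider pericentral list, 39 measured genes without the members, had 25 genes below WT in het and 23 in TG, with medians of −0.10 and −0.13. In het 3 were called lower and 1 higher by limma, the same number in all as by edgeR and against 10 by DESeq2, and both het libraries lay below both WT libraries in 19 of 39, or 48.7% beside 23.7% of all genes. The cytochrome P450 Cyp2c37 was at 14698 and 12529 in WT and 5055 and 6322 in het (−1.26, SE 0.14, limma adjusted p = 0.00777), and Cyp2c50 at 9916 and 11868 in WT and 5615 and 6346 in het (−0.86, SE 0.13, limma adjusted p = 0.0247). Reads of these near-identical Cyp2c genes could be split or shared between them in counting, so their single values are uncertain. Ahr, the aryl hydrocarbon receptor, fell from 521 and 577 to 361 and 369 (−0.59, SE 0.10, limma adjusted p = 0.0403), and Fitm1, a lipid droplet protein, rose from 441 and 522 to 952 and 1011 (1.03, SE 0.11, limma adjusted p = 0.00499). Leaving out any 1 of the 4 libraries ended the call of Ahr (limma adjusted p 0.0764 to 0.169), and that of Cyp2c50 ended without WT replicate 2, het replicate 1 or het replicate 2 (0.0523 to 0.128).

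In TG limma and edgeR called no pericentral gene (5 at an unadjusted limma p under 0.05), and DESeq2 called Avpr1a higher and Aldh1a1 lower. Aldh1a1 was at 77095 and 78805 in WT and at 22622 and 42624 in TG (−1.33, SE 0.34). The gene of smallest p was Avpr1a, a vasopressin receptor, at 206 and 213 in WT and at 951 and 775 in TG (2.03, SE 0.16, limma adjusted p = 0.102), and in het it was at 252 and 185 in WT and at 41.4 and 92.0 in het (−1.79, SE 0.44, limma adjusted p = 0.197). Fitm1 was at 1566 and 2312 in WT and 78.9 and 482 in TG (−3.28, SE 1.02), opposite in sign to het, and this difference did not pass (limma adjusted p = 0.202). The periportal list had 16 of 32 genes above WT in het (median 0.01) and 18 of 33 in TG (median 0.11). Limma and edgeR called none of them (10 in het and 6 in TG at an unadjusted limma p under 0.05). DESeq2 called 4 in het (G6pc, Hsd17b13, Pck1 and Serpina1c) and 4 in TG (Cdh1, Cyp2f2, Igfbp2 and Tat). In het Pck1 (0.98) and Hsd17b13 (0.52) stood above WT. The TG genes did not share a direction: Cdh1 (2.33) and Igfbp2 (0.91) stood above WT and Cyp2f2 (−0.81) below it. The genes of ammonia and glutamate metabolism around Glul and Oat (26 measured in het, 27 in TG) had medians of −0.05 in both, with none called by limma, edgeR or DESeq2 and 5 and 1 at an unadjusted limma p under 0.05.

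**Figure D4:**
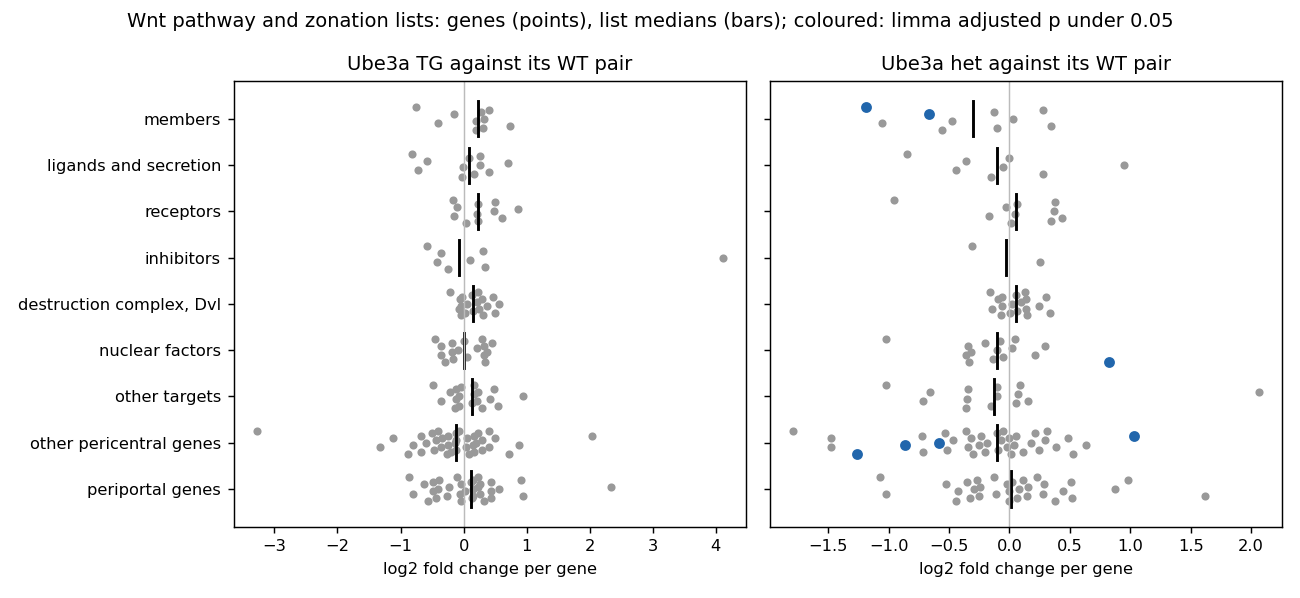
Log2 fold change of every measured gene (points, spread vertically for legibility) of the members and of 8 Wnt pathway and zonation lists, with list medians as bars; coloured points passed the limma test at an adjusted p under 0.05. In het the coloured points are Notum, Rnf43, Tle3, Fitm1, Cyp2c37, Cyp2c50 and Ahr, and in TG there are none.

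Cell type markers were read in the same libraries as the members. All 4 measured mesothelial markers of 9 were lower in het, with a summed level of 54.3 to 77.1 normalised reads against 257 to 258 in WT. The lowest marker was at 8.62 and 10.4 in the het libraries, under the mean of about 17.8 that listing required. Markers at that level are listed through their WT libraries, and Upk1b, Wt1, Lrrn4, Krt19 and Muc16 are not listed. The count of lower markers is therefore not independent of that filter. Upk3b (−2.24), Slpi (−2.21) and Gpm6a (−1.96) were called lower by limma, edgeR and DESeq2. On leaving out each of the 4 libraries in turn, limma called Upk3b in 3 of 4 fits (not without WT replicate 1, adjusted p = 0.0672), Slpi in 1 (without het replicate 2; otherwise 0.0637 to 0.170) and Gpm6a in none (0.0922 to 0.160). In TG 5 of 8 mesothelial markers stood above WT and the summed levels overlapped (505 to 920 against 441 to 1138). Of 18 endothelial markers 17 stood above WT in het, with summed levels of 9618 to 9700 against 8059 to 8594 and Lyve1 (0.92) and Gpr182 (0.67) called higher by limma. Limma called Lyve1 in 1 of the 4 omissions (without WT replicate 2; otherwise adjusted p 0.119 to 0.197) and Gpr182 in none (0.0858 to 0.224), and DESeq2 did not call Gpr182. In TG 17 of 18 endothelial markers stood below WT, at 27187 to 27679 against 32851 to 33564; limma and edgeR called none (4 at an unadjusted limma p under 0.05), and DESeq2 called Dnase1l3 lower. For Kupffer cell markers 12 of 14 stood above WT in het (11867 to 15352 against 9995 to 12825) and 13 of 14 below it in TG (26670 to 37484 against 39623 to 43224), none called by limma, edgeR or DESeq2 and 3 at an unadjusted limma p under 0.05 in each. The central vein endothelial list had 4 of 7 genes above WT in het and 5 of 8 in TG; limma called none (1 and 2 at an unadjusted p under 0.05), and edgeR and DESeq2 each called 1 in het, Fabp4, named after its values were seen. Of 14 hepatocyte markers 13 stood above WT in TG (median 0.18, both TG libraries above both WT libraries in 8), with summed levels of 5184100 to 5539050 against 4241710 to 5130020, and 9 stood below it in het (median −0.09, both het libraries below in 4), where the summed levels overlapped (1572510 to 1710960 against 1660500 to 1922640). None of them was called by limma or edgeR (2 in TG and 3 in het at an unadjusted limma p under 0.05), and DESeq2 called 2 in TG and 1 in het. No measured marker was at 0 in any library, and the part of these cell types in the members' differences was not tested.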

How the data were processed

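RNA-seq libraries of whole liver (total RNA, TRIzol, TruSeq, per the labels' protocols) were analysed. Subread 1.5.2, featureCounts, DESeq2 and mm10/GRCm38 appear in the submitters' processing notes; no source here gives the annotation or the use of strand. The authors deposited signal values, which are reads per gene divided by 1 factor per library: 100% of low values were whole reads within 0.001. Genes with a mean under about 11.2 (TG) or 17.8 (het) are not listed. Each genotype was tested within its table by limma 3.58.1 (trend, robust; R 4.3.3) on log2(value + 1), which understates changes of low genes; a gene was called at a Benjamini-Hochberg adjusted p under 0.05. Alternatives were edgeR 4.0.16 and DESeq2 1.42.0 on recovered reads, other pseudocounts, scalings, filters and fits, and leaving out each library. The script was tested on simulated data. Members and lists were chosen with earlier results of these data known. Named were Ube3a, all members, up to 4 called genes per list, otherwise the 2 of smallest p, and the 5 genes most like and unlike the members' profile; some genes these rules select are not printed. Positions and exon lengths come from GENCODE M21. Proteins were not compared.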

Additional observations from a re-analysis of the deposited data

Results flagged for a closer look

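The joint comparison of the genotype effects separated TG from het for 2 members, which were chosen with their differences in these libraries in view. Both calls depended on which library was left out, as given above. For Notum the TG effect minus the het effect was 1.38 on the log2 scale (limma adjusted p = 0.0270), with both TG libraries above and both het libraries below their WT pairs. For Rnf43 it was 1.07 (limma adjusted p = 0.0394), with the same arrangement of the libraries. Among the listed genes around them, the difference also passed for Avpr1a at 3.82 (limma adjusted p = 0.0394), for Cdh1, the E-cadherin gene of the periportal list, at 3.403 (limma adjusted p = 0.0496), and for the endothelial marker Gpr182 at −1.07 (limma adjusted p = 0.0457), where the TG libraries were lower and the het libraries higher than WT. Cdh1 was at 94.0 and 188 in WT and 687 and 660 in TG, and at 68.3 and 53.3 in WT and 21.5 and 36.8 in het. On leaving out each of the 8 libraries in turn, limma called the difference in 3 of 8 fits for Avpr1a (without TG replicate 2, het replicate 1 or het replicate 2; otherwise adjusted p 0.0545 to 0.180), in 2 for Cdh1 (without WT replicate 2 of the transgenic table or TG replicate 2; otherwise 0.0559 to 0.211) and in 2 for Gpr182 (without either TG library; otherwise 0.0961 to 0.235). No group has 4 libraries, so single outlying libraries were not tested.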

How the results depend on the processing

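With 2 libraries per group, the number of genes called moved with the fit. In TG it went from 0 to 188 with DESeq2, to 25 when all 8 libraries shared a single fit, and to between 0 and 146 on leaving out a library. In het it went from 169 to 289 with DESeq2, to 93 without robust variance estimates, to 0 with all 8 libraries in a single fit (limma, with 1157 at an unadjusted p under 0.05; edgeR on its own table called 182), and to between 61 and 173 without a library. For the difference of the effects it went from 51 to 371 with DESeq2 and to between 5 and 643 without a library. The cause was not tested.

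Of the members' 21 lost calls, those not given above were Notum in het with all 8 libraries in a single fit (limma adjusted p = 0.0647), Rnf43 in het there (0.170) and without robust estimates (0.0525), and Rnf43 in the difference with library sizes that leave out the 20 most abundant genes (0.0580). No called member changed sign under any alternative run. Without a library the uncalled Nkd1 and Glul in TG and Axin2, Tbx3, Glul, Oat and Rhbg in het changed sign. List medians moved by more than the replicate spread in 34 of 479 refits.

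The labels share only replicate numbers between groups. The deviation of each gene from its group mean was taken, over genes with a mean of at least 50. These deviations correlated between same-numbered WT and mutant libraries at 0.131 in TG and −0.080 in het. With the replicate block, 0 genes were called in TG, 138 in het and 46 for the difference, where Notum (limma adjusted p = 0.0566) and Rnf43 (0.0600) no longer passed. In the heterozygous table Lgr5, Nkd1 and Axin2 rest on 29 to 106 reads per library, and the part of depth in their spread was not tested.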
